A study of Homo sapiens with 12 samples.

Results

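Contactins, contactin-associated proteins and the L1 and NCAM families are cell-surface adhesion proteins best known from neurons. The 10 genes described here are CNTN1, CNTN3, CNTN4, CNTNAP1, CNTNAP2, NCAM1, NCAM2, L1CAM, NRCAM and CHL1, of 60617 genes in the count table. They were taken by name, as family members around CNTN1. CNTN1 itself was chosen by its measured contrast between the 2 inhibitors of the study, so its inhibitor values are given below as a description with no test. RNA was sequenced from NCI-H295R, an established line from a human adrenocortical carcinoma, in 4 groups of 3 biological replicates. Baseline cells received the vehicle DMSO for 96 h. EZH2i cells received EPZ-6438 at 62 µM for 96 h, a blocker of EZH2, which writes the repressive Polycomb mark on histone H3. CBPi cells received PRI-724 at 26 µM for 96 h, a compound that keeps the coactivator CBP from β-catenin. FSK cells spent 48 h in vehicle and 48 h in forskolin at 10 µM, which switches on adenylyl cyclase and so raises cAMP. Forskolin was therefore present for a shorter time than either inhibitor. Every value comes from this single cell line.

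Contactins are made of immunoglobulin and fibronectin domains held to the membrane by a lipid anchor, while the contactin-associated proteins cross the membrane and pair with them at the borders of the nodes of Ranvier. L1CAM, NRCAM and CHL1 cross the membrane and tie it to the spectrin skeleton through ankyrins, and NCAM1 and NCAM2 bind to copies of themselves on neighbouring cells. In neurons these proteins guide axon growth, hold axons together and place ion channels. Several of them are also made by endocrine cells and by tumours.

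Levels are given as CPM, the counts of a gene per megacount of its library, scaled by the trimmed mean of M values (TMM), with the SD of 3 libraries. A gene is called changed where the adjusted p of edgeR's quasi-likelihood test, corrected over 20360 genes, is under 0.05. All fold changes are fitted values from that model, and intervals are 95% intervals. Total counts per library were 20.6 to 31.5 megacounts. CBPi replicate 2 stood apart from the other 2 CBPi libraries, since its chi-square over degrees of freedom was 13.3 and 14.2 against these, and 2.68 to 7.10 for the other 10 replicate pairs. Values for CNTN1 and L1CAM are given with and without it, and calls of the other genes lost without it are named.

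Of the 10 genes, 9 passed the filter on low counts. CNTN3, a contactin of the nervous system, did not. Its counts were 0 in every baseline and CBPi library, 2, 2 and 0 in EZH2i, and 2, 0 and 0 in FSK, too few to compare. The 9 others covered a wide range at baseline once counts were divided by gene length. On the scale of CPM per kb, the baseline means were 24.9 for CHL1, 16.0 for NCAM1, 14.2 for NRCAM, 2.52 for NCAM2, 1.92 for CNTNAP1, 1.48 for CNTN4, 0.354 for CNTN1, 0.153 for L1CAM and 0.100 for CNTNAP2. CHL1, NCAM1 and NRCAM thus had the highest levels per length, and CNTN1 was in the low group with L1CAM and CNTNAP2. With EZH2i, CNTN1 stood at 7.31 CPM per kb, below CHL1 (42.0), NRCAM (23.2) and NCAM1 (15.8). With CBPi it stood at 0.137 CPM per kb and with FSK at 0.185.

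CNTN1 (ENSG00000018236) encodes contactin 1, a lipid-anchored protein of axons and the partner of CNTNAP1 and neurofascin at the paranode. The gene covers chr12:40692442-41072418 on the plus strand of GRCh38 in GENCODE 29. The promoter table made from RefSeq (GRCh38.p14) holds 2 starts for it, both inside that span. Within 100 bases of them lie 1 (upstream start) and 2 (downstream start) of the 11 starts in GENCODE 29. The outer end of the gene, at base 40692442, has no window here, so the CpG counts below do not cover it. The 250 bases before each start are printed here because CNTN1 had the widest range of levels among the members, and they hold few CpG dinucleotides, 5 before the upstream start (chr12:40827934-40828183, plus strand) and 2 before the downstream start (chr12:40908107-40908356, plus strand), against a median of 11 over 35116 promoters of the table. Sequences are written 5′ to 3′ on the strand of the gene, and capitals would mark a motif searched for, none of which matched in these windows.
CNTN1 upstream start: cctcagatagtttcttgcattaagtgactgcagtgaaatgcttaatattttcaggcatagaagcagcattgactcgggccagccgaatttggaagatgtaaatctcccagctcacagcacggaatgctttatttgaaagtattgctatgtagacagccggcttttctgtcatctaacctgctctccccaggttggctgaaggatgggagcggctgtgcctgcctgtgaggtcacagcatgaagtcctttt
CNTN1 downstream start: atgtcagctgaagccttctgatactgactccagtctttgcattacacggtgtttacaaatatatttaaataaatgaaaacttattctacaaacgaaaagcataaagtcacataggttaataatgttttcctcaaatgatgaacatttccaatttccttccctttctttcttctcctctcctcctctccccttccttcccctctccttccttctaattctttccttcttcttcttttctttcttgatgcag

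CNTN1 read 2.46, 2.76 and 2.73 CPM in the baseline libraries (2.65 ± 0.16, SD, n = 3). In EZH2i it read 53.6, 55.2 and 55.5 CPM (54.8 ± 1.0, SD, n = 3), from 1669 to 1736 counts against 54 to 75 at baseline. In CBPi it read 0.872, 1.33 and 0.870 CPM (1.02 ± 0.26, SD, n = 3), from 18 to 32 counts. All EZH2i libraries lay far above, and all CBPi libraries below, all baseline libraries. The fitted ratios were 20.6-fold higher with EZH2i than at baseline (log2 4.36), 2.60-fold lower with CBPi (log2 -1.38) and 53.4-fold higher with EZH2i than with CBPi (log2 5.74). CBPi replicate 2 had the highest CBPi value, and without it the log2 differences were -1.62 for CBPi against baseline and 5.97 for EZH2i against CBPi. Because the data are from bulk RNA, fewer cells that express a gene and less RNA per cell cannot be told apart, for CNTN1 or any gene below.

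The forskolin libraries were not part of the choice of CNTN1, so their contrast with baseline was tested. It reuses the baseline libraries of the untested inhibitor contrasts, so its p-values for CNTN1 are not fully independent of that choice. FSK libraries read 1.52, 1.2 and 1.43 CPM (1.39 ± 0.17, SD, n = 3), all below the baseline libraries. CNTN1 fell 1.92-fold (log2 -0.94 ± 0.16 SE, interval -1.27 to -0.61, edgeR adjusted p = 4.91e-05), and the test against a fold of 1.5 gave an adjusted p of 0.0483. The order of CNTN1 levels was EZH2i, baseline, FSK and CBPi. The FSK and CBPi libraries overlapped through CBPi replicate 2 alone, and without it all CBPi libraries lay below all FSK libraries.

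**Figure D1:**
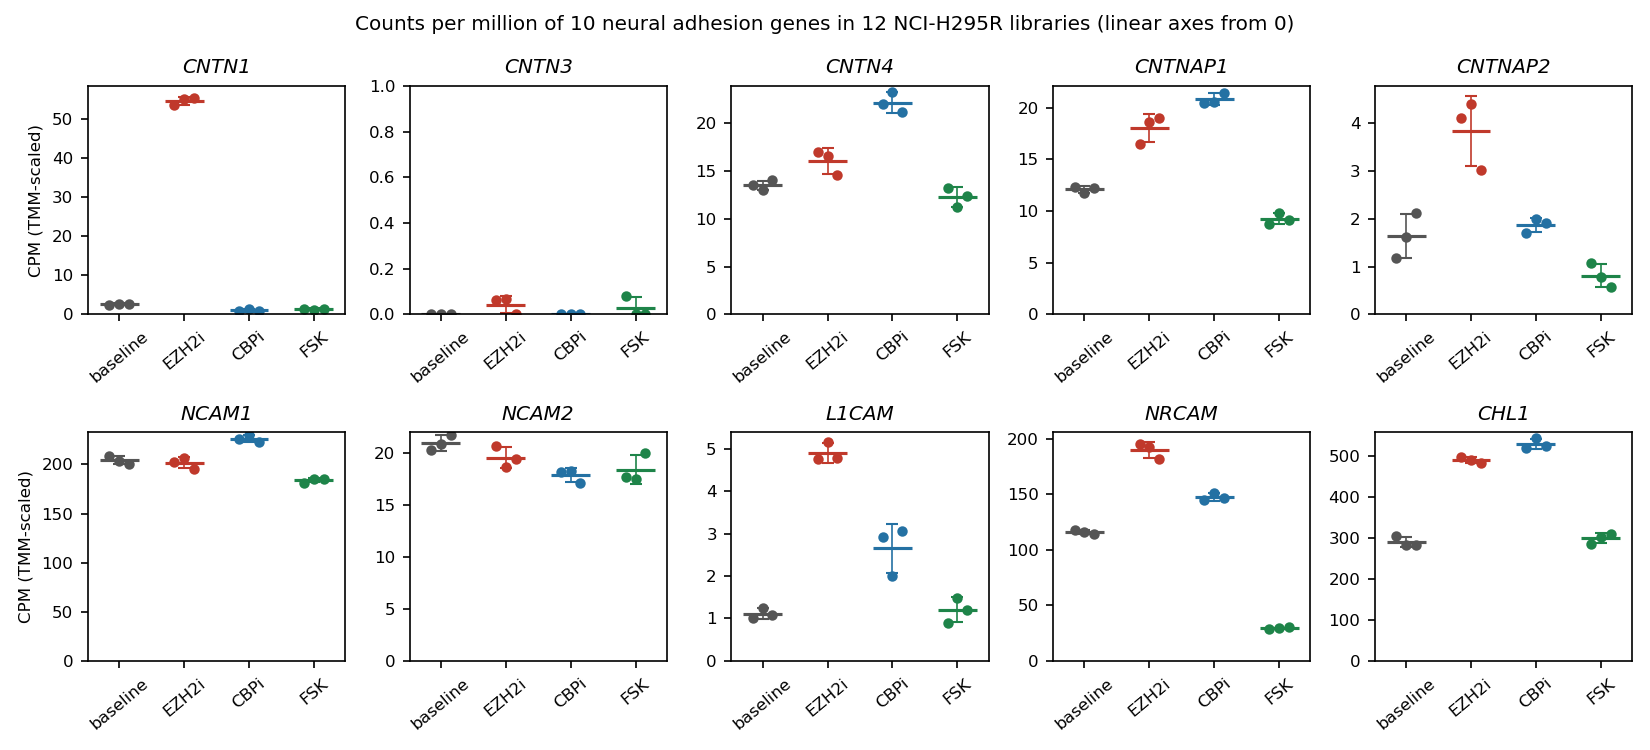
Level of the 10 genes in each of the 12 libraries, in CPM, with points for libraries, horizontal lines for group means and error bars for the SD. CNTN1 is at 53.6 to 55.5 CPM in EZH2i and at or under 2.76 CPM elsewhere, while NRCAM is lowest in FSK.

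CNTN4 (ENSG00000144619, chr3:2098813-3057956, plus strand), a contactin that binds the amyloid precursor protein, followed another order. It read 13.5, 13.0 and 14.0 CPM at baseline, 17.0, 16.6 and 14.6 in EZH2i, 22, 23.3 and 21.2 in CBPi, and 13.2, 11.2 and 12.4 in FSK. CBPi libraries were the highest, EZH2i libraries lay between, and baseline and FSK overlapped. CNTN4 rose with CBPi (log2 0.71 ± 0.08 SE, edgeR adjusted p = 1.70e-07) and, by less, with EZH2i (log2 0.25 ± 0.08 SE, adjusted p = 0.0105). The EZH2i call was lost without baseline replicate 2 (adjusted p = 0.056) or EZH2i replicate 1 (adjusted p = 0.0613). Its level was lower with EZH2i than with CBPi (log2 -0.46, edgeR adjusted p = 4.58e-05), whereas FSK and baseline differed by log2 -0.14, with an interval of -0.31 to 0.04.

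CNTNAP1 (ENSG00000108797, chr17:42682613-42699814, plus strand) encodes Caspr, the membrane partner of contactin 1. It read 12.3, 11.7 and 12.2 CPM at baseline, 16.5, 18.6 and 19.0 in EZH2i, 20.5, 20.6 and 21.5 in CBPi, and 8.79, 9.85 and 9.14 in FSK. No group overlapped another. CNTNAP1 rose with CBPi (1.73-fold, log2 0.79 ± 0.07 SE, edgeR adjusted p = 1.64e-08) and with EZH2i (log2 0.58 ± 0.07 SE, adjusted p = 1.19e-06), and fell 1.30-fold with FSK (log2 -0.38 ± 0.08 SE, adjusted p = 5.82e-04). The order was CBPi, EZH2i, baseline and FSK. The gap between the inhibitors (log2 -0.21, EZH2i minus CBPi, edgeR adjusted p = 0.0169) was lost without CBPi replicate 3 (adjusted p = 0.0669) or EZH2i replicate 1 (adjusted p = 0.117). In CBPi cells CNTN1 thus had its lowest group mean and its membrane partner CNTNAP1 its highest. CCR10, on the other strand, overlaps the first 1305 bases of CNTNAP1 and had 4 to 22 counts. EZH1, also on the other strand, ends 460 bases beyond it and moved by log2 0.31 with EZH2i and 0.34 with CBPi (edgeR adjusted p = 0.00233 and 0.00127). Whether reads were assigned by strand is not given in the sources used here, so any reads shared between overlapping genes cannot be separated.

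CNTNAP2 (ENSG00000174469, chr7:146116002-148420998, plus strand) encodes Caspr2, which gathers potassium channels beside the paranode. The libraries read 1.19, 1.62 and 2.12 CPM at baseline, 4.11, 4.40 and 3.01 in EZH2i, 1.70, 1.99 and 1.91 in CBPi, and 1.07, 0.786 and 0.583 in FSK. EZH2i lay above and FSK below all other groups, while CBPi fell within the baseline range. CNTNAP2 rose 2.35-fold with EZH2i (log2 1.23 ± 0.20 SE, edgeR adjusted p = 1.94e-05) and fell 1.99-fold with FSK (log2 -0.99 ± 0.27 SE, adjusted p = 0.00439). With CBPi the log2 difference from baseline was 0.20 (interval -0.28 to 0.67), and EZH2i was above CBPi by log2 1.03 (edgeR adjusted p = 1.61e-04). The order was EZH2i, CBPi, baseline and FSK, with CBPi and baseline not separated.

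L1CAM (ENSG00000198910, chrX:153861514-153886174, minus strand) promotes axon growth and cell migration and binds ankyrin. Its levels were 1.00, 1.25 and 1.08 CPM at baseline, 4.76, 5.16 and 4.77 in EZH2i, 2.91, 1.99 and 3.06 in CBPi, and 0.904, 1.49 and 1.21 in FSK. EZH2i libraries were the highest and CBPi libraries lay between, while FSK and baseline overlapped. L1CAM rose 4.35-fold with EZH2i (log2 2.12 ± 0.18 SE, edgeR adjusted p = 4.85e-09) and 2.37-fold with CBPi (log2 1.24 ± 0.21 SE, adjusted p = 3.05e-05). EZH2i exceeded CBPi 1.84-fold (log2 0.88 ± 0.15 SE, adjusted p = 9.82e-05). CBPi replicate 2 was the lowest CBPi library here, and without it L1CAM stood log2 1.40 above baseline in CBPi, and EZH2i exceeded CBPi by log2 0.71 (adjusted p = 4.19e-04). For FSK the log2 difference was 0.10, with an interval of -0.41 to 0.60. U52112.1, on the same strand, overlaps L1CAM over 13954 bases and had 13 to 20 counts at baseline and 41 to 46 with EZH2i (log2 1.01, edgeR adjusted p = 0.00126). Reads of the 2 genes cannot be told apart where their exons coincide.

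NRCAM (ENSG00000091129) encodes a relative of L1CAM that anchors the node of Ranvier through ankyrin. It lies at chr7:108147623-108456717 on the minus strand. Of its 3 starts in the RefSeq promoter table, the outermost is printed for its many CpG dinucleotides and the innermost because it holds the only motif match found. The 250 bases before the outermost start (chr7:108456437-108456686, minus strand), with 4 GENCODE 29 starts within 100 bases, hold 29 CpG dinucleotides, a number that 14.1% of promoters reach. The 250 bases before the innermost start (chr7:108243386-108243635, minus strand), with 0 GENCODE starts within 100 bases, hold 2. Capitals mark a full cAMP response element, TGACGTCA, whose first base is 47 bases before that start.
NRCAM outermost start: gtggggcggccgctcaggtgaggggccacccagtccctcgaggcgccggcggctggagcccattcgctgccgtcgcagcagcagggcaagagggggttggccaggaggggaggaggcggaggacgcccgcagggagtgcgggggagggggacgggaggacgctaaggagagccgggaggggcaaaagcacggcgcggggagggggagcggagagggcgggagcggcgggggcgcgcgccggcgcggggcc
NRCAM innermost start: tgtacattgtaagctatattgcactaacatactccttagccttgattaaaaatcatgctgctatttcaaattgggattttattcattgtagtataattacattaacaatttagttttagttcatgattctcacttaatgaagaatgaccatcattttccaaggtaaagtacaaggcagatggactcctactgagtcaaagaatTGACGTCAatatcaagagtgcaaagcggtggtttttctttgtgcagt

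Both strands of 16 such windows from 9 of the genes (not NCAM1) were searched for 3 motifs. These were the cAMP response element TGACGTCA, present in 1.65% of 35116 promoter windows of the same length, the TCF/LEF motif CTTTGAT or CTTTGAA, present in 5.94%, and the SF-1 motif CAAGGTCA, present in 1.14%. The element in the inner NRCAM window was the only match. It describes these letters alone, and counts per gene do not show which start was used.

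NRCAM had the largest tested response to forskolin among the genes. It read 118, 116 and 114 CPM at baseline, 196, 192 and 182 in EZH2i, 145, 152 and 147 in CBPi, and 29.1, 29.3 and 30.2 in FSK. The 4 groups did not overlap, and the FSK libraries lay far below the rest. NRCAM fell 3.93-fold with FSK (log2 -1.98 ± 0.05 SE, edgeR adjusted p = 6.65e-18). It rose 1.64-fold with EZH2i (log2 0.71 ± 0.04 SE, adjusted p = 1.27e-11) and 1.27-fold with CBPi (log2 0.35 ± 0.04 SE, adjusted p = 4.77e-07). The inhibitors differed by log2 0.36 (edgeR adjusted p = 5.02e-07), which set the order EZH2i, CBPi, baseline and FSK.

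CHL1 (ENSG00000134121, chr3:196596-409417, plus strand), the close homologue of L1, had the highest level per length of the genes in every group. It read 304, 284 and 284 CPM at baseline, 499, 492 and 484 in EZH2i, 521, 545 and 525 in CBPi, and 286, 303 and 311 in FSK. Both inhibitor groups lay above all baseline and FSK libraries, and baseline and FSK overlapped. CHL1 rose 1.69-fold with EZH2i (log2 0.76 ± 0.04 SE, edgeR adjusted p = 4.61e-12) and 1.82-fold with CBPi (log2 0.87 ± 0.04 SE, adjusted p = 5.16e-13). The FSK difference was log2 0.05, with an interval of -0.04 to 0.13. The inhibitors differed by log2 -0.11 (EZH2i minus CBPi, edgeR adjusted p = 0.0341), and this call was lost without CBPi replicate 2 or 3 or any single EZH2i library (adjusted p from 0.0538 to 0.113). CHL1-AS2, an RNA on the other strand that shares 746 bases with the start of CHL1, read 5.27 CPM at baseline and 7.01 with EZH2i.

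NCAM1 (ENSG00000149294, chr11:112961247-113278436, plus strand), a homophilic adhesion molecule that can carry polysialic acid, moved little. It read 209, 204 and 200 CPM at baseline, 202, 207 and 195 in EZH2i, 226, 230 and 223 in CBPi, and 181, 185 and 185 in FSK. CBPi lay above and FSK below all other libraries, and EZH2i overlapped baseline. NCAM1 rose with CBPi (log2 0.15 ± 0.04 SE, edgeR adjusted p = 0.00231) and fell with FSK (log2 -0.15 ± 0.04 SE, adjusted p = 0.00215). EZH2i differed from baseline by log2 -0.02 (interval -0.10 to 0.06) and from CBPi by log2 -0.17 (edgeR adjusted p = 0.00115). An antisense RNA over its first 2214 bases, AP000802.1, read 3.63 CPM at baseline and 1.51 with FSK. Another, NCAM1-AS1, lies within NCAM1 and had 1 to 12 counts in a library.

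NCAM2 (ENSG00000154654, chr21:20998315-21543329, plus strand), known from olfactory axons, read 20.2, 20.8 and 21.7 CPM at baseline, 20.6, 18.6 and 19.4 in EZH2i, 18.2, 18.3 and 17.1 in CBPi, and 17.7, 17.4 and 20 in FSK. CBPi and FSK lay below baseline and overlapped each other, and EZH2i overlapped baseline and FSK. NCAM2 fell with CBPi (log2 -0.23 ± 0.07 SE, edgeR adjusted p = 0.00854) and with FSK (log2 -0.19 ± 0.07 SE, adjusted p = 0.0318). The FSK call was lost without baseline replicate 2 or 3 or FSK replicate 1 or 2 (adjusted p from 0.0677 to 0.126). EZH2i differed from baseline by log2 -0.10 (interval -0.24 to 0.04), so neighbours in the order baseline, EZH2i, FSK and CBPi were not separated.

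**Figure D2:**
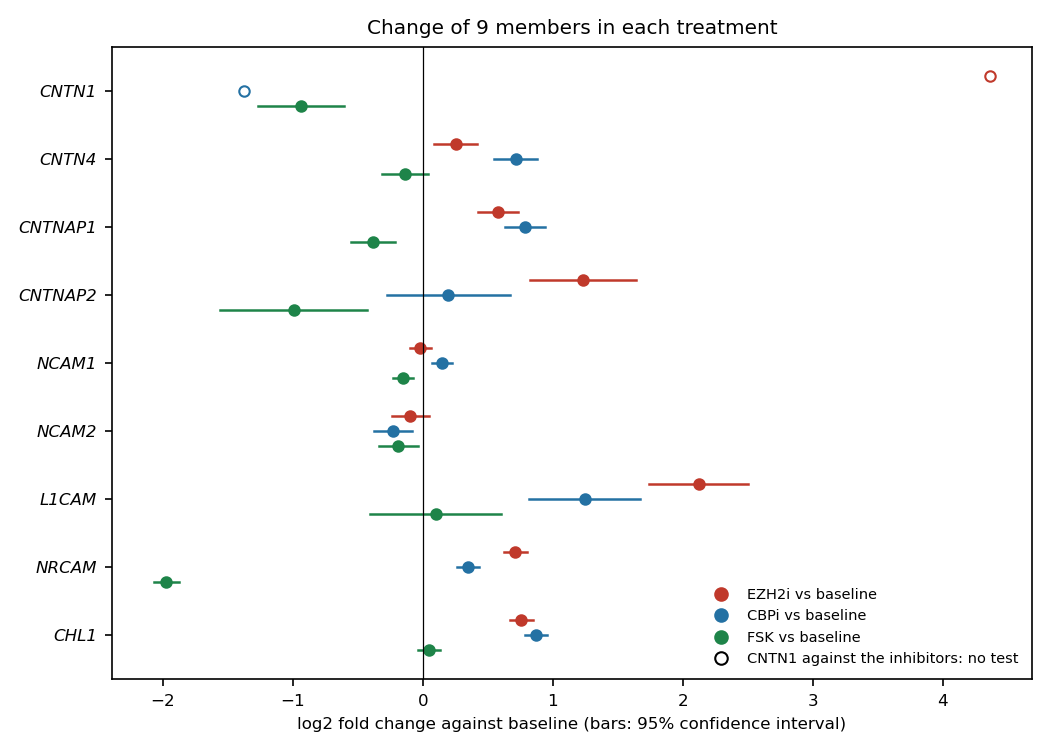
Log2 fold change of the 9 genes that passed the filter against baseline in EZH2i, CBPi and FSK, with 95% intervals for the tested values. Most genes lie above 0 with the inhibitors, NRCAM lies at -1.98 with FSK, and the CNTN1 values for the inhibitors (4.36 and -1.38) carry no test.

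Counted together, and with CNTN1 left out of the inhibitor contrasts that chose it, 6 of 8 genes rose with EZH2i and 0 fell, where 29.5% of all genes tested rose and 28.3% fell. With CBPi, 6 of 8 rose and 1, NCAM2, fell, against 29.8% and 29% of all genes. With FSK, 0 of 9 rose and 6 fell, against 25.5% and 25.1% of all genes. The median log2 fold changes were 0.64, 0.53 and -0.19, beside 0.02, 0.01 and 0.01 over all genes. By more than 1.5-fold, CNTNAP2, L1CAM, NRCAM and CHL1 rose with EZH2i (6.62% of all genes), CNTNAP1, L1CAM and CHL1 with CBPi (6.09%), and CNTN1 and NRCAM fell with FSK (6.45%). The counts of 0 stayed 0 at an unadjusted p under 0.05 in edgeR and with DESeq2 and limma voom. These counts describe genes chosen with results in view, and the 3 contrasts share the baseline libraries.

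Between the inhibitors, 3 of 8 genes (CNTNAP2, L1CAM and NRCAM) were higher with EZH2i, against 21.7% of all genes, and 4 (CNTN4, CNTNAP1, NCAM1 and CHL1) were higher with CBPi, against 22.2%. By more than 1.5-fold, 0 of the 8 were called in edgeR's test against that fold, where 4.88% of all genes were, and 2 had an unadjusted p under 0.05 in it. NCAM2 was the gene not called. Set against FSK, 7 of 8 genes were higher with EZH2i (30.3% of all genes) and 7 with CBPi (29.3%). NCAM2 was again the exception, with log2 0.09 for EZH2i minus FSK (interval -0.05 to 0.24) and -0.04 for CBPi minus FSK (interval -0.19 to 0.11).

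The other genes of these families were read as a list of 8, of which 6 passed the filter. CNTN5 and CNTNAP4 did not, with at most 3 and 7 counts in a library. With EZH2i, 4 of 6 rose (29.5% of all genes) and 0 fell (28.3%), also at an unadjusted p under 0.05 in edgeR. CNTN6, a contactin of developing neurons, went from 0.431 to 1.08 CPM (2.51-fold, edgeR adjusted p = 4.96e-04), and NFASC, the neurofascin that meets contactin 1 at the paranode, from 67.1 to 74.9 CPM. CNTNAP3 rose 3.66-fold and CNTNAP3B 3.94-fold, but these are near-identical copies and the split of reads between them is uncertain. With CBPi, 3 rose (29.8% of all genes) and 1 fell (29%). With FSK, 0 rose (25.5% of all genes), also at an unadjusted p under 0.05, and 2 fell (25.1%), NFASC from 67.1 to 46.4 CPM (1.44-fold, edgeR adjusted p = 8.88e-08) and CNTN2 from 1.45 to 0.614 CPM (2.34-fold, adjusted p = 0.00717). CNTNAP5, with 3 to 17 counts in a library, was called in none of the 3 contrasts.

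Among binding partners and ligands of the adhesion genes, 13 of 22 genes tested rose and 2 fell with EZH2i, 16 rose and 3 fell with CBPi, and 8 rose and 9 fell with FSK. For comparison, of all genes tested 29.5% rose and 28.3% fell with EZH2i, 29.8% and 29% with CBPi, and 25.5% and 25.1% with FSK. EGFR, the epidermal growth factor receptor, to which L1-type proteins can bind, went from 62.5 to 698 CPM with FSK (11.2-fold, edgeR adjusted p = 3.21e-19). NRP1, a semaphorin co-receptor that pairs with L1CAM, read 32.8 CPM at baseline and 70.3, 104 and 116 with EZH2i, CBPi and FSK. TNC, the matrix protein tenascin C, a ligand of contactin 1, went from 78.4 to 254 CPM with EZH2i (3.24-fold, edgeR adjusted p = 1.48e-16). It read 159 CPM with CBPi and 165 with FSK. GFRA1, a receptor for glial-derived neurotrophic factor that uses NCAM1, went from 0.0892 to 0.519 CPM with CBPi, both low levels. The medians of the list were log2 0.51, 0.58 and 0.01 with EZH2i, CBPi and FSK.

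Cytoplasmic scaffolds and signalling genes moved in both directions, with 10 of 22 higher and 6 lower with EZH2i, 11 and 4 with CBPi, and 7 and 8 with FSK. Beside the shares of all genes just given, the 6 lower with EZH2i and the 7 higher with FSK are near the background. ANK2, an ankyrin that holds the L1 family, read 3.53 CPM at baseline and 11.8, 17.3 and 7.06 with EZH2i, CBPi and FSK. EPB41L3, a band 4.1 protein that binds the contactin-associated proteins, went from 1.30 to 5.70 CPM with EZH2i (4.39-fold, edgeR adjusted p = 9.92e-11). FYN, a kinase downstream of contactin 1 and NCAM1, fell 2.46-fold with FSK, from 11 to 4.48 CPM (edgeR adjusted p = 4.24e-08), and rose 1.71-fold with EZH2i and 1.99-fold with CBPi (adjusted p = 1.9e-06 and 6.53e-08). GAP43, a growth cone protein that acts with NCAM1, rose 2.83-fold with CBPi, from 6.86 to 19.5 CPM (edgeR adjusted p = 6.02e-12). It rose 2.68-fold with EZH2i, to 18.5 CPM (adjusted p = 1.27e-11), and read 5.02 CPM with FSK.

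The enzymes that cut or polysialylate these proteins gave 3 higher and 4 lower of 9 with EZH2i, 3 and 2 with CBPi, and 5 and 3 with FSK. The 3 higher with either inhibitor are near the 29.5% and 29.8% of all genes, and the 4 and 2 lower stand beside 28.3% and 29%. With FSK the shares of all genes were 25.5% higher and 25.1% lower. ST8SIA4, which puts polysialic acid on NCAM1, fell 2.09-fold with FSK, from 48.8 to 23.4 CPM (edgeR adjusted p = 6.98e-12). It read 36.3 CPM with EZH2i and 39.3 with CBPi. ADAM8, a protease that cuts CHL1, rose 2.56-fold with FSK, from 8.98 to 22.8 CPM (adjusted p = 6.22e-08). ADAM17, which sheds L1CAM, rose 1.57-fold with CBPi, from 66.0 to 104 CPM (adjusted p = 4.42e-11). NEU1, a sialidase, rose 1.62-fold with FSK, from 88.2 to 142 CPM.

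In a wider list of neural immunoglobulin adhesion genes, 16 of 28 rose and 5 fell with EZH2i, 5 rose and 12 fell with CBPi, and 9 rose and 14 fell with FSK. The shares of all genes, higher and lower, were 29.5% and 28.3%, 29.8% and 29%, and 25.5% and 25.1% in the same order. IGSF9B, an adhesion protein of inhibitory synapses, read 2.97 CPM at baseline and 21.7, 18.2 and 27.4 with EZH2i, CBPi and FSK. NECTIN1, a cell junction protein, read 14.9, 60.1, 27.2 and 51.0 CPM in the same order. IGSF9 went from 6.68 to 24.1 CPM with EZH2i (3.58-fold, edgeR adjusted p = 1.08e-11) and SDK1, a synaptic adhesion gene, from 0.204 to 0.817 CPM.

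By profile over the 12 libraries, CNTN1 was set beside 14857 genes whose log2 CPM averaged 1 or more. The measure was the root mean square difference of log2 CPM centred on each gene's own mean. The closest 5 were NCALD (0.902), LRRC4B (1.02), THY1 (1.09), RASA3 (1.10) and NKD2 (1.19). NCALD, a neuronal calcium sensor, read 3.90 CPM at baseline, 30.1 in EZH2i, 3.32 in CBPi and 1.97 in FSK. THY1, a lipid-anchored immunoglobulin protein that also stands in the wider adhesion list and among the fibroblast markers, read 5.46, 16.6, 1.74 and 1.59 CPM. LRRC4B, a synaptic adhesion gene, read 8.62, 46.3, 5.84 and 3.49 CPM. RASA3 read 3.35, 58.2, 7.60 and 2.45 CPM in the same order. NKD2, an inhibitor of Wnt signalling, read 1.10, 12.5, 1.45 and 2.07 CPM, so the means of RASA3 in CBPi and of NKD2 in CBPi and FSK lay above baseline, where that of CNTN1 lay below. Pearson's r with CNTN1 over the 12 libraries, which fall into 4 groups, was 0.967 for NCALD, 0.949 for LRRC4B, 0.932 for THY1, 0.877 for RASA3 and 0.899 for NKD2, given as a description.

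**Figure D3:**
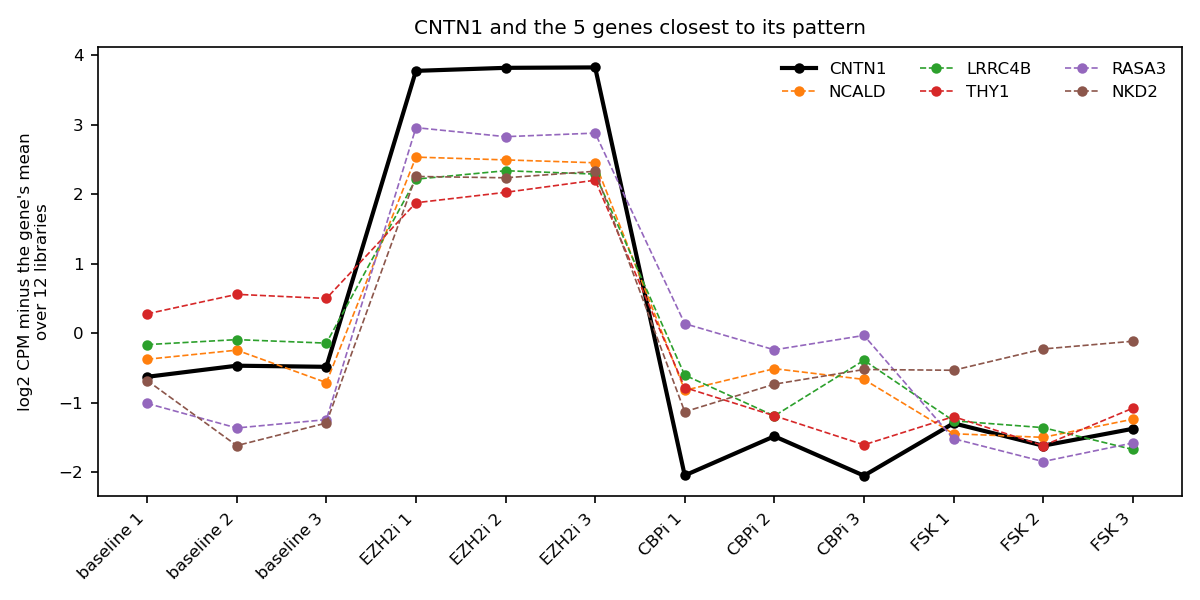
Log2 CPM of CNTN1 and its 5 closest genes in the 12 libraries, each centred on its own mean. All 6 profiles peak in the EZH2i libraries, and they part in CBPi and FSK.

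The single closest gene lay much nearer for the others. It was ADAM17 for CNTN4 (root mean square difference 0.0759), PTGFRN for CNTNAP1 (0.0864), PRICKLE1 for CNTNAP2 (0.279), FAM104A for NCAM1 (0.0341), ASB8 for NCAM2 (0.0542), ZFYVE28 for L1CAM (0.238), APBB2 for CHL1 (0.0583) and GPR22 for NRCAM (0.100). A gene that moves little finds a close match more easily, so these values are not comparable between members. GPR22, an orphan receptor, was the only one of the 13 closest genes on the chromosome of its member. It read 47.4 CPM at baseline, 88.6 in EZH2i, 60.5 in CBPi and 13.1 in FSK. It lies at chr7:107470018-107475659 on the plus strand, 672 kb from NRCAM, with 8 protein-coding genes between them.

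Once GPR22 had been seen, the protein-coding genes from 300 kb before it to 300 kb after NRCAM were read as well. Of 15, 14 passed the filter. Among the 13 other than NRCAM, 5 rose and 2 fell with EZH2i, 9 rose and 1 fell with CBPi, and 2 rose and 6 fell with FSK. Over all genes the shares that rose and fell were 29.5% and 28.3% with EZH2i, 29.8% and 29% with CBPi, and 25.5% and 25.1% with FSK. The log2 changes with FSK ran from -1.85, which was GPR22, to 0.55. The direct neighbours of NRCAM differed from baseline with FSK by log2 0.30 for LAMB4 (edgeR adjusted p = 0.0672) and 0.29 for PNPLA8 (adjusted p = 4.08e-04), and LAMB1, beyond LAMB4, fell by 0.45 (adjusted p = 6.05e-09). GPR22 was picked for its likeness to NRCAM over these same libraries, so its match in direction follows from that choice. The counts above include it. Besides GPR22, only COG5, which spans GPR22 on the other strand, rose with EZH2i and fell with FSK as NRCAM did. The COG5 change with FSK was log2 -0.13. The share of all genes that rose with EZH2i and fell with FSK was not counted. Neither direct neighbour of NRCAM fell with FSK.

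**Figure D4:**
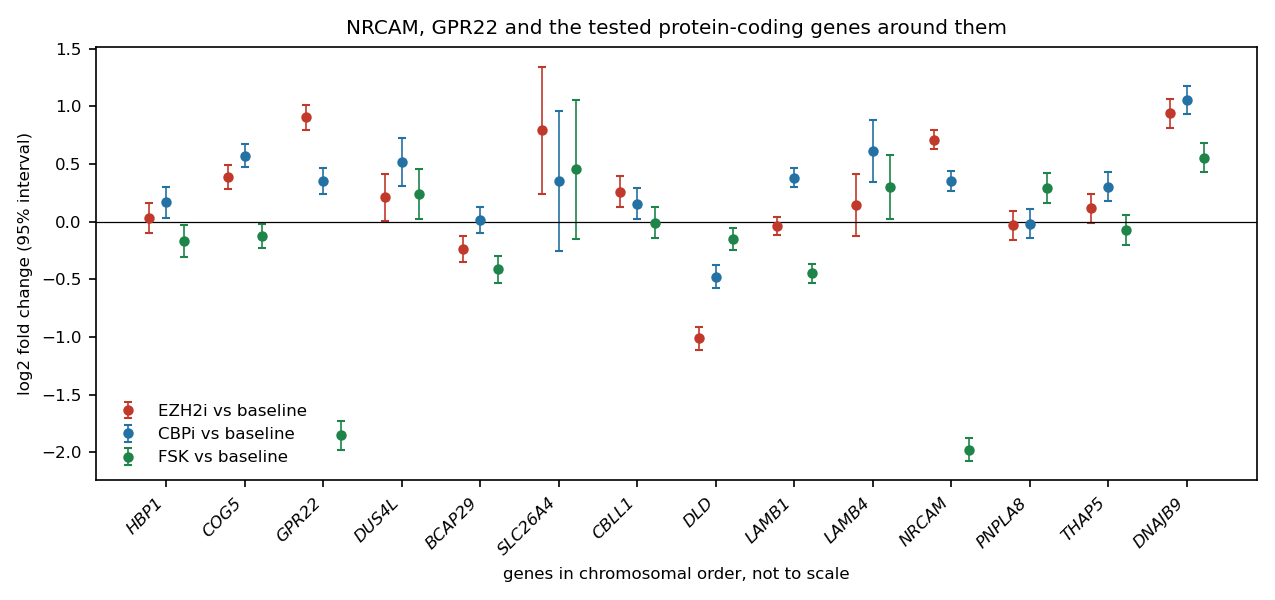
Log2 fold change against baseline of the tested protein-coding genes around NRCAM, in their order on the chromosome, for EZH2i, CBPi and FSK. With FSK, NRCAM (-1.98) and GPR22 (-1.85), which was picked for its likeness to NRCAM, lie below all genes between them.

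Markers of other cell types were read beside these results as summed CPM over each whole list. The 12 adrenocortical markers, all of which passed the filter, summed to 3984 to 4177 CPM at baseline, 1868 to 1905 in EZH2i, 1636 to 1829 in CBPi and 9297 to 9500 in FSK. The 12 neuron markers, of which 8 passed, summed to 251 to 259, 277 to 287, 211 to 229 and 140 to 148 CPM in the same order, with RBFOX3, STMN2 and ELAVL4 at 0 in all baseline libraries. The 10 chromaffin markers, of which 3 passed, summed to 50.8 to 53.9, 59.3 to 66.5, 98.3 to 102 and 23.7 to 25.4 CPM, with TH, DBH and PNMT at 0 at baseline. The 10 Schwann cell and oligodendrocyte markers, of which 7 passed, summed to 6.33 to 7.43, 5.89 to 6.89, 4.70 to 4.81 and 4.44 to 5.38 CPM, with SOX10 at 0 in every library. The 8 fibroblast markers, of which 6 passed, summed to 39.2 to 41.5, 42.3 to 49, 15 to 18.9 and 17.5 to 19.1 CPM. The 6 endothelial and 7 leukocyte markers, of which 3 each passed, stayed at or under 4.24 and 3.31 CPM. DLG4 is in both the scaffold and the neuron list. The neuron and chromaffin sums, like NRCAM, NCAM1 and NFASC, were lowest in FSK, the neuron, fibroblast and endothelial sums, like CNTN1, were highest in EZH2i, and the part of such shifts in these results was not tested. These sums rest on few genes, and SCARB1 alone gave 1840 CPM of the adrenocortical sum at baseline and 5150 in FSK. NEFL gave 113 CPM of the neuron sum at baseline and 21.1 in FSK. CHGB gave 47.9 and 19.0 CPM of the chromaffin sum. The single markers were mixed with FSK, where 3 of the 8 neuron markers tested rose and 4 fell. Of the 3 chromaffin markers tested, 1 rose and 1 fell with FSK. With FSK, 9 of the 12 adrenocortical markers rose and 2 fell, where 25.5% of all genes rose and 25.1% fell. All 12 fell with EZH2i and all 12 with CBPi, where 28.3% and 29% of all genes fell. With EZH2i, 4 of the 8 neuron markers tested rose and 2 fell, where 29.5% of all genes rose and 28.3% fell. Among the fibroblast markers, THY1 rose with EZH2i while COL1A2, COL3A1 and DCN fell. Of the 3 endothelial markers tested, KDR alone rose, from 0.428 to 2.97 CPM.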

How the data were processed

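Polyadenylated RNA of 12 NCI-H295R libraries was measured, 3 per group, and labels were taken from the treatment given for each sample. The authors deposited 1 table of estimated counts per gene, some of them fractional, with gene lengths. Reads were aligned with STAR and counted with featureCounts on hg38, per the submitters' processing notes. Not given in the sources used here are versions, annotation, strand setting and the handling of reads that map to several places. Of the genes, 60261 had a symbol, and 0 count columns were left without a sample. In 5 of the 10 genes the deposited length equals the exon length in GENCODE 29, from which gene positions were taken.

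Estimated counts were rounded, then fitted by edgeR 4.0.16 (with limma 3.58.1, under R 4.3.3). filterByExpr left 20360 genes. TMM-scaled libraries of all 4 groups entered 1 robust quasi-likelihood fit with 8 residual degrees of freedom, with Benjamini-Hochberg adjustment over all genes tested. Genes past 1.5-fold were called with glmTreat. The SE is the size of the log2 fold change divided by the square root of F. Likeness used log2 CPM with a prior count of 2. The steps were tested on simulated data. P-values measure the spread between the replicates of 1 cell line.

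The members and the gene lists were chosen with earlier results of these data known. All 10 members are named, with up to 4 genes of each list that had the largest called change against baseline, the tested genes of the families, the closest genes by profile, and genes that overlap a member. Of the marker lists, only sums and genes at 0 are given, and results for their single genes and for other genes the rule selects are not reported here. The region around NRCAM was added after its closest gene was seen. The alternatives tried were limma voom, DESeq2 1.42.0, 3 further scalings, 2 further filters, a fit per pair of groups, the 1.5-fold test and the removal of each library.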

Additional observations from a re-analysis of the deposited data

How the results depend on the processing

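No paired analysis was possible because the labels give the libraries no replicate numbers, which were set in accession order and pair nothing. Over 20 alternatives without a fold threshold, the number of tested genes called was 5 to 6 for EZH2i against baseline, 7 for CBPi against baseline, 5 to 6 for FSK against baseline and 5 to 7 for EZH2i against CBPi. Against a fold of 1.5, CBPi against baseline kept 3 calls of 7, EZH2i against CBPi 0 of 7 and FSK against baseline 2 of 6. Values not called in the reported fit changed sign as follows. With scaling by library size alone, CHL1 in FSK against baseline was log2 -0.024, NCAM1 in EZH2i against baseline 0.0020 and NCAM2 in CBPi against FSK 0.022. With single libraries left out, L1CAM in FSK against baseline ran from log2 -0.092 (without FSK replicate 2) to 0.27, NCAM1 in EZH2i against baseline from -0.040 to 3.2e-04 (without EZH2i replicate 3) and NCAM2 in CBPi against FSK from -0.081 to 0.021 (without FSK replicate 3). The cause was not tested. The CHL1 difference between inhibitors was also lost with library size alone (adjusted p = 0.111), upper-quartile scaling (0.0781) and no filter (0.079), and NCAM2 was called between EZH2i and FSK with library size alone (0.0266). CNTN3, CNTN5 and CNTNAP4 had too few counts to compare at this depth.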
